A study of Mus musculus with 4 samples.

Results

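The mouse genes for the Sm, Lsm and SF3 proteins of the spliceosome were followed across 4 RNA-seq libraries of oocytes. They were taken by symbol from the FPKM table (fragments mapped to a transcript, divided by its length and by the mapped fragments of the library): symbols that begin with Snrp, with Lsm and a digit, or with Sf3a or Sf3b and a digit, with Lsm14b left out by that rule. This gave 33 of 21957 genes, with no use of their measured values. The oocytes came from female B6D2F1 hybrids (C57BL/6 x DBA) aged 6 to 8 weeks. Fully grown oocytes were kept in M16 medium and pooled for RNA. GV oocytes, arrested with an intact germinal vesicle, were taken at 0 h. The other oocytes were cultured for 12 h without drug (MII) or with 10 μM (TubA-10) or 20 μM (TubA-20) tubastatin A (TubA), an inhibitor of the mainly cytoplasmic deacetylase HDAC6 that was dissolved in DMSO. The sources used here give no DMSO for the GV and MII oocytes, and the labels give no meiotic stage for the treated ones. The paper took as MII oocytes those that had extruded a polar body, and names no such choice for the treated ones. It reports that 20 μM TubA blocked progression to MII. Comparisons of TubA-20 with MII thus differ in both drug and stage, which cannot be told apart. In the treatment field of their labels the TubA-10 and TubA-20 samples carry 20 and 11 μM, while their titles carry 10 and 20 μM, and the titles are followed here. With 1 library for each condition there is no spread between replicates to set a difference against, and no p-values are given.

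Splicing is carried out by small nuclear ribonucleoproteins (snRNPs). The U1, U2, U4 and U5 RNAs each carry a ring of Sm proteins (SmB, SmD1, SmD2, SmD3, SmE, SmF and SmG, encoded by Snrpb, Snrpd1, Snrpd2, Snrpd3, Snrpe, Snrpf and Snrpg), while U6 carries a ring of the related Lsm2 to Lsm8. When Lsm1 stands in for Lsm8, the ring acts on mRNA in the cytoplasm, where it promotes decapping. Lsm10 and Lsm11 replace SmD1 and SmD2 in the U7 snRNP, which processes the 3′ ends of histone mRNA. SF3a and SF3b are the protein complexes of the U2 snRNP that hold it at the branch point of the intron. A fully grown oocyte makes almost no new RNA, so its mRNA pool is shaped by storage, changes of the poly(A) tail and decay. The genes were grouped by role into 8 Sm ring genes (with Snrpn, the paralog of Snrpb), 9 short Lsm genes, 4 genes for proteins that are particular to U1 or U2, 3 longer Lsm genes, 7 large SF3 factors and 2 small SF3b subunits.

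The oocyte label was checked against markers. All 8 oocyte markers had over 1 FPKM in each library and together reached 7062 to 8387 FPKM, while the 8 cumulus and granulosa markers together reached 8.22 to 15.4 FPKM, with 1 or 2 of them over 1 FPKM and Foxl2 at 0 in each library. Of the 5 blood markers the 4 globin genes were at 0 in every library and Ptprc was at 0.00893 FPKM in TubA-10 and at 0 elsewhere. The step between the lowest FPKM values put the depth of MII at 1.61 times, of TubA-10 at 1.71 times and of TubA-20 at 0.901 times that of GV. These are estimates from few genes and do not settle whether TubA-20 or GV was the deeper.

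In TubA-20, the Sm ring, the short Lsm genes and the large SF3 factors each held genes that fell and genes that rose against GV. Of the 33, 8 (24.2%) were more than 2-fold lower than in GV, beside 23.6% of all genes tested, and 8 (24.2%) were more than 2-fold higher, beside 15.3%. The share lower was thus near that of all genes, and the SD of the changes was 1.39 across the 33 genes and 1.20 across all genes. The genes tested were the 10898 that reached 1 FPKM in any library, and changes are log2 ratios of FPKM + 1. Those that fell were Snrpd2, Snrpc, Lsm10, Sf3b3, Lsm3, Snrpa, Snrpb and Lsm6. Those that rose were Snrpn, Snrpg, Lsm14a, Lsm1, Lsm7, Snrpf, Sf3b1 and Sf3b4. The median log2 change was 0.07 for the 33 genes and 0.07 for all genes tested. The 7897 genes that reached 5 FPKM in any library, as 32 of the 33 did, had a median of 0.22 and an SD of 1.33. Of these genes 26.4% were lower and 19.9% higher. Against GV, MII had 6 members lower (18.2%, beside 16.8% of all genes) and 2 higher (6.06%, beside 6.14%). The median there was -0.18 against 0.04 for all genes. TubA-10 had 5 lower (15.2%, beside 11.3% of all genes) and 1 higher (3.03%, beside 1.5%), with a median of 0.02 against 0.08. These comparisons share the GV library. With the libraries scaled to a median change of 0, Lsm1 (0.96), Lsm7 (0.95), Snrpf (0.87), Sf3b1 (0.85) and Sf3b4 (0.83) lay just under 2-fold in TubA-20, as did Lsm14a (0.93) and Snrpn (0.94) in MII. Each of the 33 genes had at least 1 FPKM in all 4 libraries, and Sf3a2 alone stayed under 5 FPKM in all of them. Since mRNA was selected with oligo(dT), a lower level of mRNA and a shorter poly(A) tail cannot be told apart in these values. FPKM is divided by the mapped fragments of its library, so it shows neither the RNA per oocyte nor the number of oocytes.

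**Figure D1:**
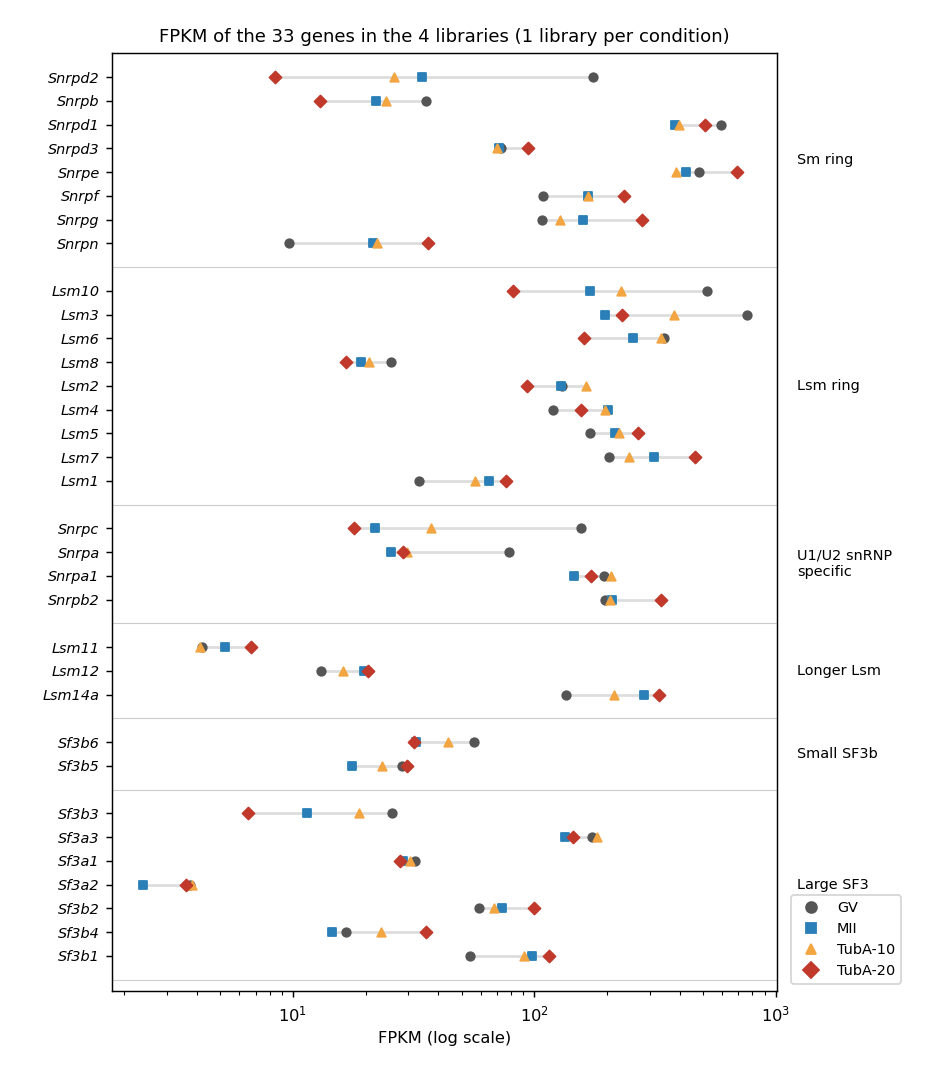
FPKM on a log scale (x axis) of each of the 33 genes (y axis, grouped by role) in the GV, MII, TubA-10 and TubA-20 libraries, with 1 symbol per library and a grey line from the lowest to the highest value. The TubA-20 symbol is the highest for 16 genes and the lowest for 10, and the GV symbol is the highest for 12 and the lowest for 12.

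In TubA-20 against GV, the Sm ring had the widest spread of the groups by role (SD 1.95). In the rings of U1, U2, U4 and U5 these proteins stand together, and the place of Snrpb can also be filled by Snrpn. Snrpd2, which encodes SmD2 (chr7:19149722-19153542 of GRCm38, plus strand), fell from 175 FPKM in GV to 26.2 in TubA-10, 8.45 in TubA-20 and 34.3 in MII. At -4.22 for TubA-20, this was the largest log2 change of the 33 genes, and MII and TubA-10 had -2.32 and -2.70. Snrpb, for SmB (chr2:130171414-130179403, minus strand), had 35.7 FPKM in GV, 24.4 in TubA-10, 12.9 in TubA-20 and 22.1 in MII, and passed 2-fold only in TubA-20 (-1.40). All 3 cultured libraries lay below GV for both of these genes, with TubA-20 the lowest.

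Snrpg and Snrpf, for SmG and SmF, went the other way. The Snrpg mRNA (chr6:86371304-86379328, plus strand) stood at 107 FPKM in GV, 127 in TubA-10, 279.8 in TubA-20 and 159 in MII, a log2 change of 1.37 in TubA-20. For Snrpf (chr10:93583029-93589706, minus strand) GV held 109 FPKM, TubA-10 167, TubA-20 234 and MII 168, a change of 1.10 in TubA-20. GV was the lowest and TubA-20 the highest library for both. In the window check described further on, 18.1% of the Snrpg transcript and 21.3% of the Snrpf transcript also lay in processed pseudogenes on the same strand. One of these, Gm8186, which matches Snrpg, had 12.4 FPKM in GV, 3.84 in TubA-10, 26.7 in TubA-20 and 5.51 in MII. Snrpf also overlaps Ccdc38 on the opposite strand.

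Snrpe, Snrpd1 and Snrpd3 stayed within 2-fold of GV in each library. Snrpe, for SmE, reached the highest value of any of the 33 genes outside GV, with 480.3 FPKM in GV, 386 in TubA-10, 693 in TubA-20 and 425 in MII. Snrpd1, for SmD1, had 594 FPKM in GV, 397 in TubA-10, 508 in TubA-20 and 381 in MII. Snrpd3, for SmD3, was at 72.8, 70.0, 94.6 and 71.7 FPKM in the same order. For these 3 genes the MII and TubA-10 values lay close to each other and below TubA-20. So in TubA-20 the mRNA of the ring subunits ran from 8.45 FPKM for Snrpd2 to 693 for Snrpe, while in GV the same mRNAs other than Snrpn ran from 35.7 for Snrpb to 594 for Snrpd1.

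Snrpn, the imprinted paralog of Snrpb that is known chiefly from neurons, moved opposite to Snrpb. It had 9.60 FPKM in GV, 22.2 in TubA-10, 36.4 in TubA-20 and 21.4 in MII, with log2 changes of 1.13, 1.82 and 1.08 against GV. Snrpb was the higher of the pair in GV (35.7 against 9.60 FPKM) and Snrpn in TubA-20 (36.4 against 12.9), while in MII and TubA-10 the pair lay near each other. The Snrpn transcript shares 24.3% of its windows with other annotated genes on its strand, among them Snurf, which is made from the same locus and was listed near 0 in GV and at 1.87 FPKM in TubA-20.

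In the Lsm family Lsm10 and Lsm3 fell in each cultured library, although Lsm3 only just passed 2-fold in TubA-10. Lsm10, a U7 subunit (chr4:126096623-126098584, plus strand), went from 517 FPKM in GV to 229 in TubA-10, 81.2 in TubA-20 and 170.2 in MII, with changes of -1.17, -2.66 and -1.60. Lsm3 (chr6:91515928-91522625, plus strand) was the most abundant of the 33 mRNAs in GV at 758 FPKM, and stood at 378 in TubA-10, 231 in TubA-20 and 196 in MII, with changes of -1.001, -1.71 and -1.95. TubA-20 was the lowest library for Lsm10 and MII for Lsm3. Lsm6 (chr8:78804865-78821140, minus strand) had 344 FPKM in GV, 334 in TubA-10, 161 in TubA-20 and 255 in MII, and only its change in TubA-20 (-1.09) passed 2-fold.

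Lsm1 and Lsm7 rose in TubA-20. Lsm1, the subunit that marks the decay ring (chr8:25785288-25803975, plus strand), had 33.1 FPKM in GV, 57.0 in TubA-10, 76.4 in TubA-20 and 64.7 in MII, a change of 1.18 in TubA-20 and of 0.94 in MII. Lsm8, which takes its place in the U6 ring, had 25.5, 20.6, 16.6 and 19.1 FPKM in the same order, a change of -0.59 in TubA-20. Lsm1 was the higher of the pair in all 4 libraries, and the pair lay closest together in GV. Lsm7 (chr10:80852821-80855209, minus strand) read 204 FPKM in GV, 248 in TubA-10, 462 in TubA-20 and 312 in MII (1.18). Of its windows, 62.8% also lie in processed pseudogenes, and one of these, Gm10146, went from 2.29 FPKM in GV to 11.97 in TubA-20, so the Lsm7 value is uncertain.

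The other short Lsm genes did not pass 2-fold in any comparison with GV. Lsm2, in both rings, had 130.3 FPKM in GV, 163 in TubA-10, 93.4 in TubA-20 and 129 in MII. Lsm4 had 119.6, 197, 156 and 201 FPKM, and Lsm5 170.2, 224, 269 and 216 FPKM, in the same order. GV was thus the lowest library for Lsm4 and Lsm5 and TubA-20 the lowest for Lsm2. Among the 3 longer Lsm genes, Lsm14a (chr7:34344646-34393315, minus strand), whose protein binds translationally repressed mRNA in granules, had 136 FPKM in GV and rose to 327 with TubA-20 (1.26) and to 286 in MII (1.07), while TubA-10 had 214 (0.65). Lsm12 ranged from 13.1 FPKM (GV) to 20.5 (TubA-20). Lsm11, the partner of Lsm10 in U7, had 4.19 FPKM in GV, 4.13 in TubA-10, 6.71 in TubA-20 and 5.22 in MII. The Lsm10 mRNA was thus far above that of Lsm11 in GV and lay nearer to it in TubA-20, on the FPKM scale that is divided by length.

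Of the 4 genes for proteins particular to one snRNP, Snrpc and Snrpa of U1 fell and Snrpa1 and Snrpb2 of U2 did not pass 2-fold. Snrpc, for the C protein of U1 (chr17:27838150-27851968, plus strand), dropped from 155 FPKM in GV to 37.4 in TubA-10, 17.97 in TubA-20 and 21.97 in MII, with changes of -2.02, -3.04 and -2.77. Snrpa, for the A protein of U1 (chr7:27187005-27196271, minus strand), dropped from 78.5 FPKM to 29.8 in TubA-10, 28.7 in TubA-20 and 25.4 in MII, with changes of -1.37, -1.42 and -1.59. The cultured libraries lay close to each other for Snrpa, with or without TubA. The mRNA of Snrnp70, for the 70K protein of U1, is not among the 33 by its symbol and moved the other way, with 138 FPKM in GV, 241 in TubA-10, 322 in TubA-20 and 250.01 in MII and changes of 0.80, 1.22 and 0.86. Snrpa1 and Snrpb2 encode the U2 proteins A′ and B″. Snrpa1 had 194 FPKM in GV, 207 in TubA-10, 172 in TubA-20 and 146 in MII, and Snrpb2 had 196, 205, 335 and 210.3 FPKM in that order. Snrpc and Snrpa share windows with processed pseudogenes on the same strand, 26.7% for Snrpc and 22.5% for Snrpa counting every such partner.

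**Figure D2:**
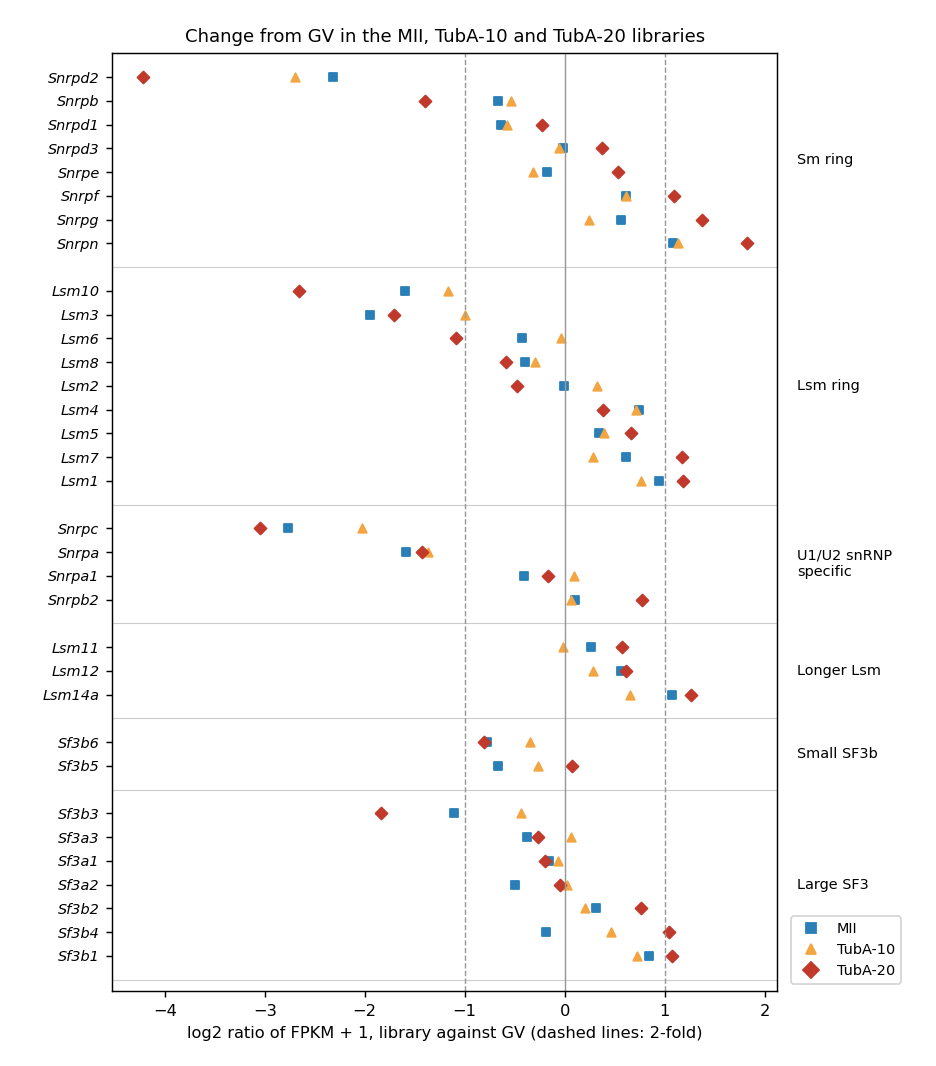
Log2 ratio of FPKM + 1 against GV (x axis) for each of the 33 genes (y axis, grouped by role) in MII, TubA-10 and TubA-20, with dashed lines at 2-fold. In TubA-20 the changes run from -4.22 for Snrpd2 to 1.82 for Snrpn, and the large SF3 factors run from -1.83 for Sf3b3 to 1.07 for Sf3b1.

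Among the 7 large SF3 factors, Sf3b3 fell and Sf3b1 and Sf3b4 rose in TubA-20. Sf3b3, a scaffold subunit of SF3b (chr8:110810239-110846787, minus strand), had 25.8 FPKM in GV, 18.8 in TubA-10, 6.52 in TubA-20 and 11.5 in MII, with changes of -0.44, -1.83 and -1.11. Sf3b1, its partner that closes around the branch point (chr1:54985169-55027481, minus strand), had 54.1 FPKM in GV, 90.2 in TubA-10, 115 in TubA-20 and 97.7 in MII, with changes of 0.73, 1.07 and 0.84. The Sf3b1 mRNA was thus above that of Sf3b3 in each library, and the distance between them was widest in TubA-20. Sf3b4, which contacts the pre-mRNA beside the branch point, had 16.6 FPKM in GV, 23.2 in TubA-10, 35.4 in TubA-20 and 14.5 in MII, with a change of 1.05 from GV and of 1.23 from MII. Sf3b4 was the only gene of the 33 more than 2-fold higher in TubA-20 than in MII, but 49.3% of its windows lie in the processed pseudogene Gm7935 as well.

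The other large SF3 factors stayed within 2-fold. Sf3a3 was the most abundant of the 7 in GV at 174 FPKM, with 181 in TubA-10, 145 in TubA-20 and 134 in MII. Sf3b2 had 58.8 FPKM in GV, 67.8 in TubA-10, 100.1 in TubA-20 and 73.3 in MII. Sf3a1 lay between 27.8 FPKM in TubA-20 and 32.1 in GV, the narrowest range of this group as a ratio, with 28.6 in MII and 30.5 in TubA-10. Sf3a2 was low in each library, with 3.76 FPKM in GV, 3.83 in TubA-10, 3.60 in TubA-20 and 2.38 in MII. The small SF3b subunits did not pass 2-fold either. Sf3b5 had 28.4 FPKM in GV, 23.5 in TubA-10, 29.8 in TubA-20 and 17.5 in MII. Sf3b6, which also lies at the branch point, had 56.2, 44.1, 31.8 and 32.5 FPKM in that order.

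The dose order was then read for each gene. From GV through TubA-10 to TubA-20, 12 genes (36.4%) were higher at each step, 11 (33.3%) were lower at each step and 10 (30.3%) followed neither order. Over all genes tested these shares were 39.2%, 33.2% and 27.5%, so the 33 genes lay near them. For TubA-10 against MII, none of the 33 genes was more than 2-fold lower or higher, near the 0.257% and 1.04% of all genes. The changes ran from -0.42 for Lsm14a to 0.95 for Lsm3. Their median was 0.06 over the 33 genes and 0.44 over the 7 large SF3 factors. Against MII, TubA-20 had 2 of the 33 genes lower (6.06%, beside 4.92% of all genes), Snrpd2 at -1.90 and Lsm10 at -1.06. The 1 higher was Sf3b4 (3.03%, beside 0.661% of all genes). Against TubA-10, TubA-20 had 5 lower (15.2%, beside 11.1% of all genes) and 1 higher (3.03%, beside 1.33%). The 5 were Snrpd2 (-1.53), Lsm10 (-1.49), Sf3b3 (-1.40), Lsm6 (-1.05) and Snrpc (-1.02), and the higher one was Snrpg (1.13).

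The Sm and Lsm rings have the same order of related subunits, so each Sm gene was set beside the Lsm gene of the same place. In TubA-20 against GV, 6 of the 7 pairs lay on the same side of GV. Snrpd2 and Lsm3, the pair that fell most, had log2 changes of -4.22 and -1.71, and Snrpg and Lsm7, the pair that rose most, had 1.37 and 1.18. Snrpd3 and Lsm4 had 0.37 and 0.38, Snrpe and Lsm5 0.53 and 0.66, Snrpd1 and Lsm2 -0.23 and -0.48, and Snrpb and Lsm8 -1.40 and -0.59. Snrpf and Lsm6 were the pair on opposite sides, at 1.10 and -1.09. In MII 4 of the 7 pairs and in TubA-10 3 of the 7 were on the same side of GV. For TubA-20, 3 of the 7 had the same sign against MII and 4 against TubA-10. Against GV, Snrpd3 (-0.05) and Lsm6 (-0.04) lay near 0 in TubA-10, as did Snrpd3 (-0.02) and Lsm2 (-0.01) in MII. Each changed sign when the libraries were scaled to equal FPKM sums, so the pair counts for TubA-10 and MII against GV are not firm. The place of Snrpb can also be filled by Snrpn and that of Lsm8 by Lsm1, and both of these had the opposite sign in TubA-20, at 1.82 and 1.18. With 7 pairs and 1 library per condition, this is a description of these libraries.

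**Figure D3:**
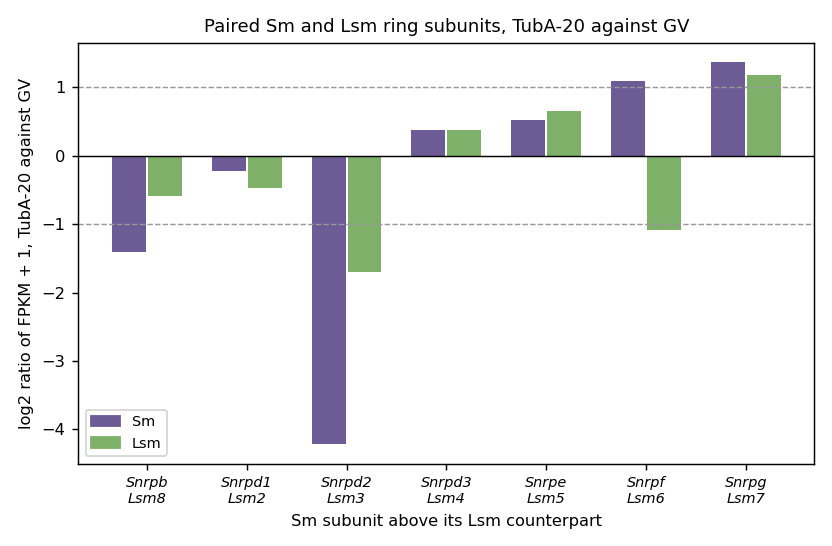
Log2 ratio of FPKM + 1 in TubA-20 against GV (y axis) for the 7 pairs of Sm (purple bars) and Lsm (green bars) genes that hold the same place in the ring (x axis), with dashed lines at 2-fold. The bars of 6 pairs point the same way, and those of Snrpf and Lsm6, at 1.10 and -1.09, point opposite ways.

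The 17 small Sm and Lsm ring genes were compared with the 7 large SF3 factors. Against GV, the small genes had median log2 changes of -0.04 for TubA-10, 0.37 for TubA-20 and -0.02 for MII. The large factors had 0.06, -0.05 and -0.19 in that order. The SD across genes in TubA-20 was 1.60 for the small and 1.02 for the large genes, and the difference between the medians was 0.42, with no replicates to test it. It was 0.12 without Snrpn and 0.09 without Sf3a2, which a minimum of 5 FPKM leaves out, so single genes set its size. In TubA-20 5 of the 17 small genes were more than 2-fold lower and 5 higher, while 1 of the 7 large ones was lower and 2 were higher. As shares these were 29.4% and 29.4% of the small and 14.3% and 28.6% of the large genes, beside 23.6% and 15.3% of all genes. The small genes spanned 6.04 log2 units and the large ones 2.91, and the ranges overlapped. The sign of the difference turned when genes that share sequence with others were left out: without the 13 genes that have over 10% of their windows in other transcripts, the median of the 8 small genes left was -0.53 and lay 0.41 log2 units below that of the 6 large ones. With all members kept, small minus large was 0.009 for TubA-20 against MII and -0.39 for TubA-10 against MII. For TubA-20 against TubA-10 it was 0.33. In level the groups differed more than in change: the median FPKM in GV was 130.3 for the small and 32.1 for the large genes, and in TubA-20 156 and 35.4.

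Across all genes tested the change from GV went with the length of the encoded protein, so the members were read beside genes of like length. In TubA-20 the median of all genes was -0.67 for proteins under 150 residues, -0.33 from 150 and under 250, -0.09 from 250 and under 500, 0.24 from 500 and under 1000, and 0.50 from 1000 residues up. The 17 members under 150 residues (Sm, Lsm and small SF3b proteins) had a median of 0.07. The 9 of them with at most 10% of their windows in other transcripts, a split chosen after seeing the data, had a median of -0.48, and the other 8 had 0.59. The part of shared sequence in this was not tested. Of the 17, 4 were more than 2-fold lower and 4 higher, where 42.0% of the 897 genes of that length were lower and 11.8% higher. The Spearman coefficient of change with protein length was 0.24 across 10845 genes and 0.04 across the 33, genes of the same 2 libraries being no independent replicates. SmG, the shortest at 76 residues, was among the genes that rose, and SF3B3, at 1217 residues, among those that fell. In MII the medians of all genes by length ran in the same order, from -0.46 to 0.46, and the 17 short members had -0.18. By the same split, the 9 with at most 10% shared had -0.40 in MII and the other 8 had 0.08. Genes with at least 100 FPKM in GV had a median of -0.47 in TubA-20 over all 1264 of them and of -0.17 over the 17 members among them.

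**Figure D4:**
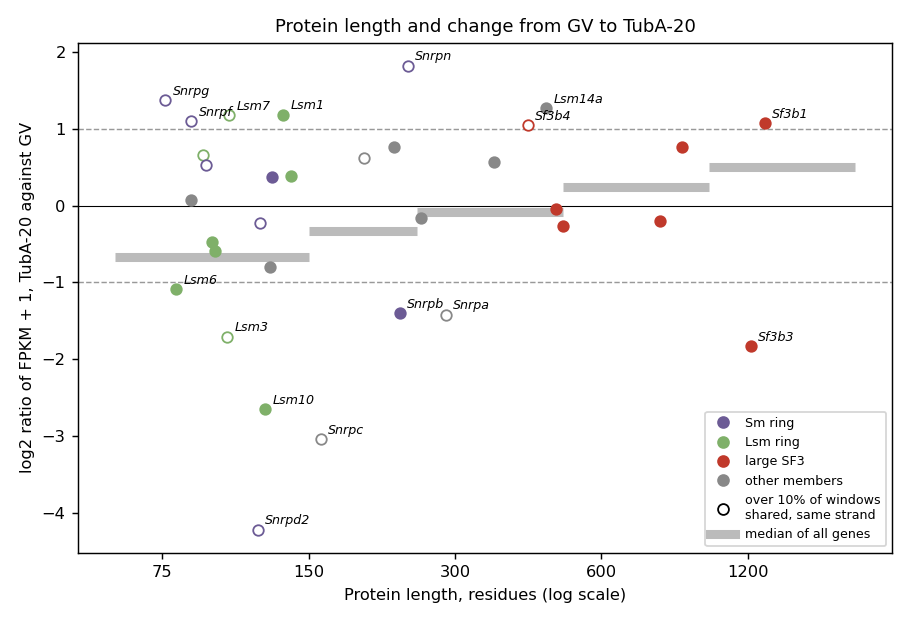
Length of the encoded protein in residues (x axis, log scale) and log2 ratio of FPKM + 1 in TubA-20 against GV (y axis) for the 33 genes, coloured by role, with open symbols for genes that have over 10% of their windows in other transcripts on the same strand and grey bars at the median of all genes of each length class. The grey bars climb from -0.67 to 0.50, while members under 150 residues lie both above and below theirs.

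The 3′ UTR carries the signals by which maturing oocytes lengthen or shorten the poly(A) tail, among them the cytoplasmic polyadenylation element, with the core TTTTAT or TTTTAAT in DNA letters, which acts near the hexamer AATAAA. These letters were searched on the sense strand in the 3′ UTR of 1 principal transcript per gene. Either core was found in 20 of the 33 genes (60.6%), beside 59.2% of the 10674 genes tested that have a 3′ UTR. With the core anywhere in the 3′ UTR, the median log2 change in TubA-20 was 0.10 over the 20 genes and 0.07 over the other 13, and over all genes it was 0.43 with and -0.65 without. Within the last 120 bases, a window chosen after seeing the data, either core was found in 10 of 33 (30.3%), beside 21.6% of all genes, with 4 of the 17 small and 3 of the 7 large genes among them. The 10 were Lsm1, Lsm3, Lsm7, Lsm11, Lsm14a, Sf3a1, Sf3a3, Sf3b1, Snrpa1 and Snrpd3. Their median log2 change in TubA-20 was 0.47, with 1 lower (Lsm3) and 4 higher (Lsm1, Lsm7, Lsm14a and Sf3b1), and the median of the other 23 was -0.05, with 7 lower and 4 higher. Over all genes the medians were 0.56 with and -0.10 without the core there, with 11.0% lower and 23.9% higher among the first and 27.1% and 12.8% among the second. AATAAA stood in the last 50 bases of 20 of the 33 genes (60.6%), beside 63.6% of all genes. The median 3′ UTR had 398 bases in the 33 genes and 900.5 in all genes.

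The 30 bases that end in the hexamer nearest the annotated transcript end are shown for Lsm14a and Sf3b1, which rose, for 3 genes that fell in a cultured library, and for Snrpd3, which did not pass 2-fold, to let the cores be compared with their place beside the hexamer. Capitals mark that hexamer, AATAAA or ATTAAA, and, where it lies in these 30 bases, TTTTAT or TTTTAAT. The core of Lsm14a overlaps an earlier AATAAA, of which the last bases are left in lower case.
Lsm14a, chr7:34344664-34344693, minus strand: ttgtgtTTTTAATaaaggccatggAATAAA
Sf3b1, chr1:54985185-54985214, minus strand: gtgagcatcaagtaccaccagataAATAAA
Snrpd3, chr10:75537336-75537365, plus strand: ctgtttggtttaTTTTATtgtattAATAAA
Snrpc, chr17:27851917-27851946, plus strand: ttcacttatattgtgaaatgtgaaAATAAA
Snrpb, chr2:130171662-130171691, minus strand: ctgtggcctatgaagctggtttatAATAAA
Snrpa, chr7:27187032-27187061, minus strand: tgcacctggcgctgttagattgtgATTAAA

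Of the 22 such stretches read, 2 hold a core, those of Lsm14a and Snrpd3, and Sf3b4 and Snrpn, which rose in TubA-20, hold none. Sf3b1 has its core further from the hexamer, within the last 120 bases. Coordinates and sequence are those of GRCm38 with the GENCODE annotation, and the ends annotated there may not be those used in oocytes. A match of letters is not a functional site, and its part in these changes was not tested.

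Genes of the same pathway outside the 33 were read from lists made by role. Of 50 other spliceosome genes, TubA-20 had 12 more than 2-fold below GV and 7 above it, MII had 12 and 4, and TubA-10 had 10 and 0, with medians of 0.05, -0.11 and 0.04. The 3 largest falls in TubA-20 were Bud31, a subunit of the activated spliceosome, from 799 to 46.5 FPKM (-4.07), Xab2, of the same stage, from 25.0 to 1.63 FPKM (-3.30), and Eftud2, the GTPase of the U5 snRNP, from 74.2 to 6.76 FPKM (-3.28). The 3 largest rises were Prpf6, which bridges U5 and U4/U6, from 76.6 to 211 FPKM (1.45), Cdc5l, of the Prp19 complex, from 7.64 to 20.2 FPKM (1.30), and Srsf11, an SR-related protein, from 40.3 to 99.8 FPKM (1.29). In TubA-20 the shares of this list, 24% lower and 14% higher, lay near the 23.6% and 15.3% of all genes, as did its median. In MII the 24% lower and 8% higher stand beside 16.8% and 6.14% of all genes, and in TubA-10 20.0% and 0 beside 11.3% and 1.5%. Of 14 genes for the assembly of Sm rings, such as those of the SMN complex, 4 were lower (28.6%) and 2 higher (14.3%) in TubA-20, with a median of -0.44, and 3 (21.4%) and 0 in MII, with a median of -0.30. Gemin4 and Wdr77 of this list reached at most 0.354 and 0.490 FPKM. They could not pass 2-fold and lie outside the genes tested, so these shares are understated beside those of all genes. Of 8 genes for proteins of the minor spliceosome, 2 were lower and 2 higher in TubA-20 (median 0.05) and in MII (-0.07). That is 25% each way, beside 23.6% and 15.3% of all genes in TubA-20 and 16.8% and 6.14% in MII. Of the 8, Snrnp35 stayed under 1 FPKM in every library (highest 0.826), so it could not pass 2-fold and lies outside the genes tested.

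Several genes of this family have processed pseudogenes. Each transcript was split into all its 50-base windows, and these were looked up in the annotated transcripts of all other genes. On the same strand 13 of the 33 genes had over 10% of their windows elsewhere and 11 had none. The 13 hold 5 of the 8 genes that rose in TubA-20 and 4 of the 8 that fell. Lsm14a, Lsm1 and Sf3b1 are the genes that rose without such sharing, and Lsm10, Sf3b3, Snrpb and Lsm6 those that fell. For Snrpd2, with the largest change, 11.7% of the windows were shared, mainly with the processed pseudogene Gm10120. How the authors' counting divided reads between a gene and its copies was not tested.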

How the data were processed

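RNA from pools of mouse oocytes, 1 library for each of 4 conditions, went through oligo(dT) selection and strand-specific paired-end sequencing. The authors deposited 1 table of FPKM values, made with Cufflinks and divided by transcript length and mapped fragments. The submitters' processing notes name STAR 2.5.0, Cuffdiff 2.2.1 and mm10. Labels and methods differ on the RNA extraction and on the gene model (a UCSC model is named, the table has Ensembl identifiers). Of 21959 entries, 165 had no symbol, and entries that shared a symbol were summed. Depth was estimated from ratios of low FPKM values.

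Changes were log2 ratios of FPKM + 1 (pseudocount 1), called past 2-fold, beside all genes that reached 1 FPKM in any library. Such ratios understate changes of low genes. The rule for the members used no measured values, but it, the lists and the other rules were chosen with earlier results of these data known. Every member is named, and from the other spliceosome genes the 3 largest falls and rises in TubA-20 among those that reached 5 FPKM in any library. Protein lengths, 3′ UTRs and 50-base windows came from the principal transcripts of GENCODE on GRCm38. The windows, the last 120 and 50 bases of the 3′ UTR and ATTAAA were chosen after seeing the data. On simulated data of 21957 genes for TubA-20 against GV, 200 of 200 genes changed 4-fold were recovered, and 0 unchanged genes passed 2-fold. With no replicates, this checks the calculation and gives no rate of false calls. Alternatives were pseudocounts of 0.1 and 0.01, a minimum of 5 FPKM or none, 3 scalings, a 3-fold threshold, a split at 250 residues and the highest entry of a symbol. The scripts ran on Python 3.11.15 (matplotlib 3.10.9, scipy 1.17.1, pandas 2.3.3, numpy 2.4.6). One sequence is not reported here.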

Additional observations from a re-analysis of the deposited data

How the results depend on the processing

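No member that passed 2-fold changed sign under any alternative. Scaling to a median change of 0 moved the median of all genes against GV by -0.14 for TubA-10, -0.19 for TubA-20 and -0.13 for MII, and left 0, 3 and 0 members higher in that order. The shares of all genes given above are on the deposited scale, so counts of members under a scaling are not read against them. Equal FPKM sums moved that median by 0.11 in MII against GV and by -0.13 in TubA-20 against MII, and Sf3b3 in MII then stood at -0.98. Equal upper quartiles left 3 members lower in TubA-20 than in TubA-10. With a 3-fold threshold, 0 were higher in MII than in GV, 2 lower and 0 higher in TubA-10, 5 lower and 1 higher in TubA-20, 1 lower and 0 higher in TubA-20 against MII, and 0 lower and 0 higher in TubA-20 against TubA-10, by construction of the stricter limit. The shares of all genes given above are at 2-fold, so these 3-fold counts are not read against them. Without Snrpn, an alternative added after seeing the data, 1 member was higher in MII and 0 in TubA-10 than in GV. Without the 13 members that share windows, also added later, 20 members were left. Of these, against GV, 2 were lower and 1 higher for MII, 1 lower and 0 higher for TubA-10, and 4 lower and 3 higher for TubA-20, the last near the 23.6% and 15.3% of all genes, while TubA-20 had 1 lower and 0 higher against MII and 3 lower and 0 higher against TubA-10. The small members then had medians of -0.53 in TubA-20 against GV, -0.41 against MII and -0.56 against TubA-10, and the small minus large difference was -0.41, -0.59 and -0.46. With all members these medians were 0.37, 0.24 and 0.26 and the differences 0.42, 0.009 and 0.33, so all these signs turned. The cause was not tested beyond the loss of members. In the other 329 pairs of a value and an alternative, counts stayed within 1.5 times and medians and differences shifted by less than a 1.5-fold ratio, which for values near 0 still allows a large relative move. The small members' median in TubA-20 ran from 0.15 to 0.43 over the scalings, was 0.22 with the split at 250 residues and 0.07 without Snrpn, and in MII it ran from -0.16 to 0.11. The shares of all genes set beside the counts were less stable and moved by over 1.5 times in 47 such pairs, most of them with no minimum, a 3-fold threshold or a smaller pseudocount. Fragment counts are not used here, so the precision that depth gives each value is unknown. No paired analysis was possible because each condition had 1 library, and no library could be left out.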
